A study of Mus musculus with 15 samples.

Results

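Serpina3c, Serpina3f, Serpina3g, Serpina3k, Serpina3m and Serpina3n are 6 genes of the mouse Serpina3 cluster, measured by 6 of the 25206 probe sets of an expression array. They were found by the Entrez gene number that names each probe set (16625, 238393, 20715, 20714, 20717 and 20716, in that order). The set was chosen by these genes' measured levels across the 5 groups, so those levels are a description here and carry no test. In adipocytes sorted from mouse fat, Serpina3n was brighter than 97.6% or more of the probe sets on every array. Serpina3c was brighter than 91.37% or more of them. Serpina3f showed the widest span between group means, with high values in untreated white and rosiglitazone-treated cells and low values in the other 3 groups.

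All arrays held RNA of adipocytes sorted by flow cytometry from chow-fed UCP1/Tomato mice aged 8 to 10 weeks, 15 arrays in all, with 2 ng of total RNA amplified for each. BAT (3 arrays) is brown adipocytes positive for UCP1, the uncoupling protein that lets mitochondria of brown fat release heat, taken from the brown fat of untreated animals. CL, RS and RG are UCP1-positive adipocytes of inguinal fat. CL (3 arrays) came from mice given CL316243, an agonist of the beta-3 adrenergic receptor. RS (2 arrays) came from mice given roscovitine, an inhibitor of cyclin-dependent kinases, and RG (3 arrays) from mice given rosiglitazone, an agonist of the nuclear receptor PPAR-gamma. CL and RG cells are labelled beige adipocytes and RS cells brite adipocytes. WAT (4 arrays) is UCP1-negative white adipocytes of inguinal fat from untreated mice. The labels call the sorting marker UCP1(GFP) while naming UCP1/Tomato mice, and give no dose, duration, sex or number of animals per array. CL, RS and RG each differ from WAT in the drug and in the sorting gate, and these cannot be told apart.

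The labels were checked against Ucp1 itself. Its log2 values were 11.18, 11.22 and 10.22 in BAT, 10.53, 10.52 and 10.19 in CL, 6.05 and 8.43 in RS, 7.69, 7.96 and 8.88 in RG, and 4.03, 4.47, 4.39 and 3.20 in WAT. Every array of the UCP1-positive groups lay above every WAT array, and RS 3 had the lowest value among the positive groups. The arrays' medians ran between 3.33 and 3.47 log2 units. The standard deviation over all probe sets was 1.65 to 1.85 in BAT, CL, RS and RG and 1.91 to 2.00 in WAT, and the median difference of all probe sets from WAT was 0.18 in BAT, 0.13 in CL, 0.14 in RS and 0.10 in RG. The number of arrays limits the precision of every value below.

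Serpins are protease inhibitors that present a loop to their target: the protease cuts it, the serpin changes shape and the protease stays locked to it. The human SERPINA3 product, alpha-1-antichymotrypsin, is a plasma protein of the acute phase, made mainly by the liver, raised by interleukin-6 through STAT3 and by glucocorticoids, and active against neutrophil cathepsin G and mast cell chymase. Mice carry a row of paralogues in place of the lone human gene, and these differ most in the loop that meets the protease, so that their targets differ.

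In the RefSeq annotation of mouse build GRCm38.p6, 14 Serpina3 entries (10 of them protein-coding) follow each other on chromosome 12, from Serpina3a to Serpina3n, between Serpina5 and Gsc. There are 3 further entries within the row and 0 protein-coding genes of another family. Promoter sequences from RefSeq (GRCm38.p6), 250 bases before to 50 after the annotated start, were at hand for 4 of the 6 genes, Serpina3c, Serpina3f, Serpina3g and Serpina3n. They are shown because these neighbours differ in level across the groups while their promoters align over much of their length, closely for Serpina3c with Serpina3n and less so for the other pairs. Serpina3c lies at chr12:104153823-104154122 on the minus strand, Serpina3f at chr12:104214294-104214593, Serpina3g at chr12:104235897-104236196 and Serpina3n at chr12:104406458-104406757, the last 3 on the plus strand. Each is printed 5′ to 3′ on the gene's strand, and the capitals mark 2 blocks of 12 or more bases that all 4 promoters share without a change.
Serpina3c: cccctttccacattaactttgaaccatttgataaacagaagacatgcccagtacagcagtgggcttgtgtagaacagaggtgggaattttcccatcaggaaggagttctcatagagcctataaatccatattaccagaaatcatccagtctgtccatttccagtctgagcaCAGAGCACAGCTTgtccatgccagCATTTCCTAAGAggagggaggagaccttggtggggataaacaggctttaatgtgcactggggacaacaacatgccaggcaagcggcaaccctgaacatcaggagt
Serpina3f: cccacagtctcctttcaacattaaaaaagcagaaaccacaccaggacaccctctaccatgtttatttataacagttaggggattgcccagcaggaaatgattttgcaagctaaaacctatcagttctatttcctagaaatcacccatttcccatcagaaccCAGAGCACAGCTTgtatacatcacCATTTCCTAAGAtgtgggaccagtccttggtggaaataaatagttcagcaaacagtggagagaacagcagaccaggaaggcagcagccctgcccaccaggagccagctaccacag
Serpina3g: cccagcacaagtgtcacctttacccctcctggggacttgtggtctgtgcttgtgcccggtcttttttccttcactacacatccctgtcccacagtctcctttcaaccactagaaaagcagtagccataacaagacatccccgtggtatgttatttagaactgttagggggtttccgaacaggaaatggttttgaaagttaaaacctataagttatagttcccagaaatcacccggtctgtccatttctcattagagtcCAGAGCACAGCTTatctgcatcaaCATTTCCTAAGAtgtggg
Serpina3n: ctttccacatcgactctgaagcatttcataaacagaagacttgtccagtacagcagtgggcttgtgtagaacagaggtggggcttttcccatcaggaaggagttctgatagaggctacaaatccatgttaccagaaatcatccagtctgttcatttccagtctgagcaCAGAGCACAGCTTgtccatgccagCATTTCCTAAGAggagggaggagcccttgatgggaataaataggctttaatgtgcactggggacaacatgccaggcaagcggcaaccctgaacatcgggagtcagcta

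The first block, CAGAGCACAGCTT, occurs on either strand in 6 of 27025 promoters of this length (0.0222%), and 5 of these 6 are the 4 printed here and Serpina3i. The second, CATTTCCTAAGA, occurs in 10 of 27025 (0.0370%), among them the same 5 and Serpina3b. Counted from the annotated start as base 1, the first block begins at -79 in Serpina3c, -89 in Serpina3f, -82 in Serpina3n and 9 in Serpina3g, so the Serpina3g start is annotated upstream of blocks that lie before the start in the others. Serpina3c and Serpina3n were the most alike of the 6 pairs, with 275 of 294 aligned bases identical (93.5%). Serpina3f and Serpina3g shared 169 of 202 (83.7%), and the other 4 pairs 70.6% to 76.1%. Short letter patterns were searched on both strands. TTCNNNGAA, the pattern that STAT proteins bind, was found in Serpina3f at -121 and in Serpina3g at -33, and in 8.47% of all promoters. AGAACA, the half-site of the glucocorticoid receptor, was found in Serpina3c at -180, Serpina3n at -183 and Serpina3f at -5 (19.0% of all promoters). TTGCNNAA, a C/EBP pattern, was found in Serpina3f alone of the 4, at -150 and -22 (10.8%), and TATAAA in Serpina3c at -132 and Serpina3f at -186 (14.2%). These matches did not overlap each other or the blocks, and a match is a description of the letters only.

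Serpina3n, the closest mouse counterpart of human alpha-1-antichymotrypsin and a secreted inhibitor of granzyme B and leukocyte elastase, had log2 values of 8.07, 8.23 and 8.40 in BAT, 8.89, 8.66 and 9.11 in CL, 9.62 and 9.99 in RS, 10.06, 9.95 and 9.20 in RG, and 10.08, 9.32, 10.06 and 9.42 in WAT. All BAT arrays lay below all CL arrays, and all CL arrays below all arrays of the other 3 groups. In every sample it was brighter than 97.6% or more of the probe sets of that array. The mean was lower than in WAT by 1.49 ± 0.239 log2 units in BAT (SE of the fit, n = 3 and 4, 2.80-fold) and by 0.83 ± 0.239 in CL (n = 3 and 4, 1.78-fold). It differed from WAT by 0.08 ± 0.272 in RS (n = 2 and 4) and 0.02 ± 0.239 in RG (n = 3 and 4), with 95% intervals of -0.49 to 0.66 and -0.49 to 0.53. The order was RS (9.80), RG (9.74), WAT (9.72), CL (8.89) and BAT (8.23), where the first 3 overlapped and CL and BAT each stood apart from their neighbours. These are bulk samples of sorted cells, in which fewer cells of a type and less RNA per cell cannot be told apart.

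Serpina3c, a secreted relative also called kallikrein-binding protein, read 6.82, 6.56 and 6.91 in BAT, 7.02, 7.21 and 8.19 in CL, 9.0 and 7.99 in RS, 9.01, 8.70 and 8.95 in RG, and 9.18, 8.15, 8.98 and 7.03 in WAT. BAT lay below every other array of the series, and CL below every RG array. The WAT arrays spread over 2 log2 units, with WAT 4 down among the CL values. The mean in BAT was 6.76 ± 0.182, against 8.34 ± 0.978 in WAT (SD, n = 3 and 4), a difference of -1.57 ± 0.420 (SE, 2.97-fold). Differences from WAT of -0.86 ± 0.420 in CL, 0.16 ± 0.476 in RS and 0.55 ± 0.420 in RG were within overlapping arrays. Without both WAT 4 and RS 3 the RS difference from WAT was -0.78, and with single arrays left out in turn it ran from -0.34 to 0.66, so its direction rests on which arrays are kept. In the order of means, RG (8.89), RS (8.49), WAT (8.34) and CL (7.47) overlapped with their neighbours, and BAT (6.76) did not overlap with CL.

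Serpina3m, a further paralogue next to Serpina3n in the row, had values of 3.95, 3.03 and 3.18 in BAT, 3.84, 4.36 and 5.32 in CL, 5.46 and 5.72 in RS, 5.78, 4.93 and 4.12 in RG, and 6.18, 4.67, 6.72 and 4.96 in WAT. BAT lay wholly below WAT, and RS wholly above CL. RG and WAT spread over more than 1.5 log2 units each, and overlapped with CL. The BAT mean was 3.39 ± 0.494 and the WAT mean 5.63 ± 0.977 (SD, n = 3 and 4), a difference of -2.25 ± 0.487 (SE, 4.74-fold). CL differed from WAT by -1.13 ± 0.487, RS by -0.04 ± 0.552 and RG by -0.69 ± 0.487. The means ran WAT (5.63), RS (5.59), RG (4.94), CL (4.51) and BAT (3.39), each overlapping with the next.

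Serpina3k, known as contrapsin and in liver an abundant inhibitor of trypsin-like proteases, was dim and flat. Its values were 2.93, 2.95 and 3.78 in BAT, 3.15, 3.43 and 3.30 in CL, 3.20 and 3.61 in RS, 4.08, 3.43 and 3.47 in RG, and 4.41, 3.34, 4.57 and 3.26 in WAT. All 5 groups overlapped with their neighbours in the order of means, from 3.90 in WAT through 3.66 in RG, 3.40 in RS and 3.29 in CL to 3.22 in BAT. Across arrays it was brighter than 33.4% to 66.9% of probe sets. Its largest difference from WAT was -0.68 ± 0.317 in BAT (SE, n = 3 and 4), with a 95% interval of -1.35 to -0.001. No background level comes with the values, so how much of so dim a signal belongs to the gene was not tested.

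Serpina3g, known as Spi2A and, unlike most of the family, an inhibitor inside the cell that acts on lysosomal cathepsins and is induced in activated leukocytes, read 3.28, 2.99 and 3.07 in BAT, 3.98, 3.97 and 3.65 in CL, 3.49 and 3.39 in RS, 2.95, 3.58 and 2.27 in RG, and 3.63, 3.49, 2.68 and 4.44 in WAT. It was the only one of the 6 whose highest group mean was CL (3.87), followed by WAT (3.56), RS (3.44), BAT (3.11) and RG (2.93). CL lay above RG on all arrays, by 0.93 ± 0.354 log2 units (SE, n = 3 each), and RS lay below CL on all arrays, by -0.43 ± 0.396 (n = 2 and 3). All 4 groups overlapped with WAT. Serpina3g was dim like Serpina3k, above 20.3% to 65.5% of the probe sets of its array. How much of its signal belongs to the gene was likewise not tested.

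Serpina3f, a close paralogue and neighbour of Serpina3g, divided the groups most sharply. Its values were 2.42, 2.88 and 3.53 in BAT, 1.75, 2.28 and 2.76 in CL, 2.39 and 2.71 in RS, 5.35, 5.27 and 3.82 in RG, and 5.17, 4.26, 5.33 and 4.86 in WAT. All 8 arrays of BAT, CL and RS lay below all 7 arrays of RG and WAT. In RG and WAT the probe set was brighter than 58.9% to 80.1% of its array, and in BAT, CL and RS brighter than 4.95% to 51.6%. Relative to WAT the difference was -1.96 ± 0.374 in BAT (SE, n = 3 and 4, 3.90-fold), -2.64 ± 0.374 in CL (n = 3 and 4, 6.24-fold) and -2.36 ± 0.424 in RS (n = 2 and 4, 5.12-fold). In RG it was -0.09 ± 0.374 (n = 3 and 4), with a 95% interval of -0.89 to 0.70. Between drug groups, Serpina3f was lower by -2.26 ± 0.447 in RS than in RG (n = 2 and 3, 4.80-fold) and by -2.55 ± 0.400 in CL than in RG (n = 3 each, 5.86-fold). The order was WAT (4.90), RG (4.81), BAT (2.94), RS (2.55) and CL (2.26), with a gap only between RG and BAT.

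**Figure D1:**
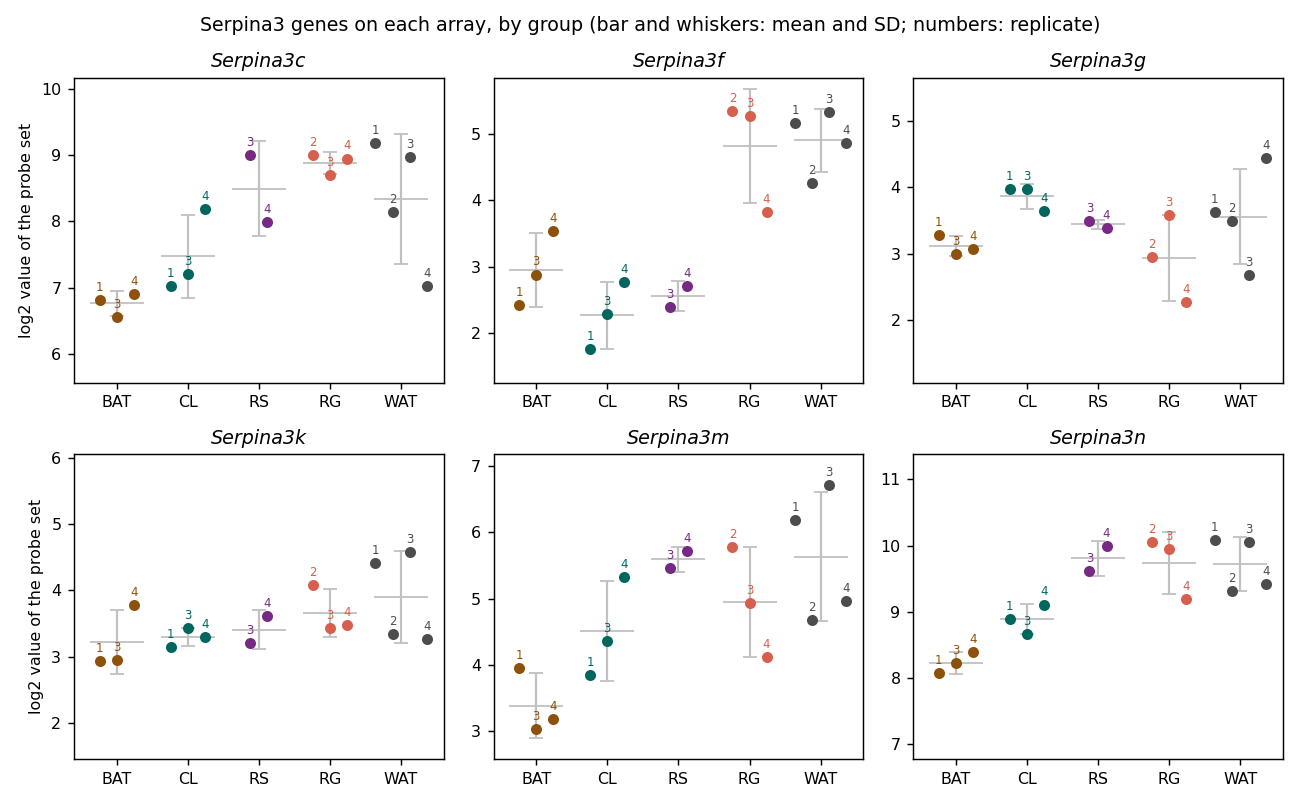
Log2 value of each Serpina3 probe set (vertical axis, the same span of log2 units in each panel) on the 15 arrays, by group along the horizontal axis, with the replicate number above each point and a grey bar and whiskers for the group mean and SD. Serpina3f falls into a high pair of groups (RG and WAT, 3.82 to 5.35) and a low set (BAT, CL and RS, 1.75 to 3.53), while Serpina3n steps up from BAT (8.07 to 8.40) through CL (8.66 to 9.11) to the other groups (9.20 to 10.08).

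Set side by side, 4 of the 6 genes were lower on every BAT array than on every WAT array (Serpina3c, Serpina3f, Serpina3m and Serpina3n), a pattern shown by 17.5% of all probe sets. For CL it was 2 of 6 (Serpina3f and Serpina3n, 14.1% of all probe sets), for RS 1 of 6 (Serpina3f, 17.9%) and for RG 0 of 6 (11.6%). Because these levels chose the genes, nothing is read from the counts. The median difference of the 6 genes from WAT was -1.53 in BAT, -0.85 in CL, -0.08 in RS and -0.16 in RG. The 4 comparisons share the WAT arrays.

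**Figure D2:**
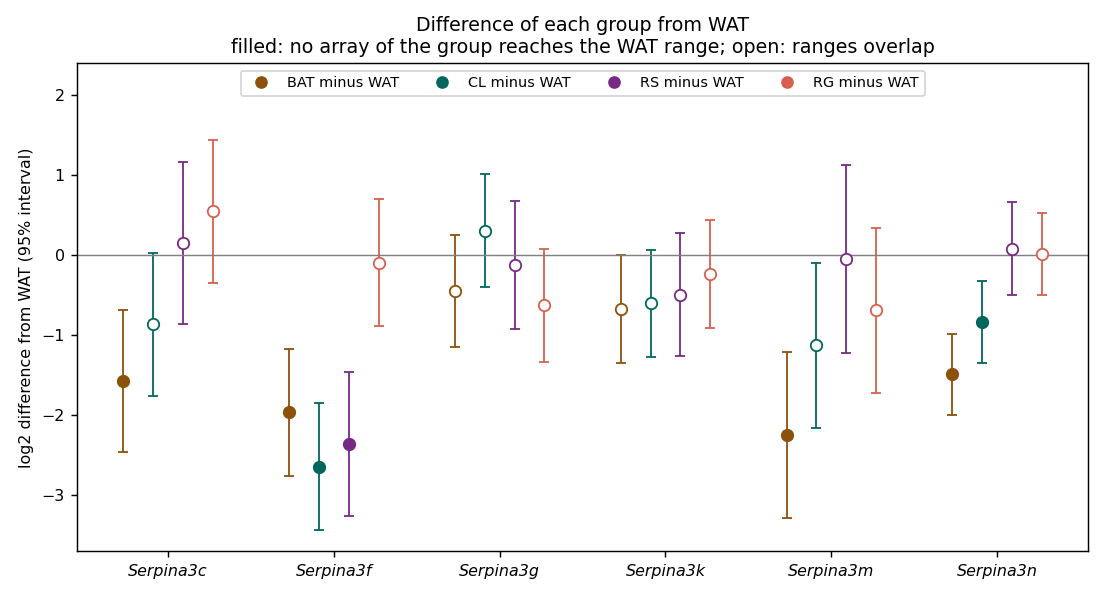
Difference in log2 units between each of BAT, CL, RS and RG and the WAT mean (vertical axis), for each Serpina3 gene along the horizontal axis, with 95% intervals of the fit. Filled points mark groups with no array inside the WAT range; Serpina3f in CL is the lowest point (-2.64) and the Serpina3f difference of RG (-0.09) is the one closest to 0 for that gene.

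The drug groups also differed from each other. In RS against CL, Serpina3m and Serpina3n lay higher on both RS arrays than on all CL arrays (by 1.08 ± 0.582 and 0.92 ± 0.286, n = 2 and 3), as did 13.3% of all probe sets, and Serpina3g lay lower, as did 17.1%. In RS against RG, Serpina3f was the one gene of the 6 without overlap, lower in RS as were 16.7% of all probe sets. In CL against RG, Serpina3c (-1.41 ± 0.449), Serpina3f and Serpina3n (-0.85 ± 0.256) were lower in CL on all arrays (11.6% of all probe sets) and Serpina3g was higher (14.1%). These small groups often fail to overlap, and the shares of all probe sets show how often.

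Within WAT, 5 of the 6 genes split the arrays in the same way. WAT 1 and WAT 3 lay above WAT 2 and WAT 4 for Serpina3c, Serpina3f, Serpina3k, Serpina3m and Serpina3n, and not for Serpina3g. The mean of the mature adipocyte markers split the WAT arrays in the same way, as given below. How many of all probe sets do so was not counted, so nothing is read from the 5 genes. Other groups did not all share an order. Serpina3c was lower on RS 4 (7.99) than on RS 3 (9.0), where Serpina3f, Serpina3k, Serpina3m and Serpina3n were higher on RS 4. In BAT, Serpina3m was highest on BAT 1, and Serpina3f, Serpina3k and Serpina3n on BAT 4. After removal of the group means, the 10 pairs without Serpina3g had Pearson correlations of 0.29 to 0.85 over the 15 arrays. The lowest was Serpina3c with Serpina3f and the highest Serpina3f with Serpina3n. The 5 pairs with Serpina3g ran from -0.59 to 0.11. The pairs share arrays and genes, have no background of other gene pairs beside them, and are given as a description. The probe sets of such close paralogues may also share signal. Probe sequences were not used here, so how far each value belongs to its own gene was not tested.

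Markers of the cell types that a fat digest can hold moved along with the groups and, within WAT, with the arrays. Over 11 markers of mature adipocytes, the mean log2 value per array was 9.45 to 9.50 in BAT, 9.55 to 10.1 in CL, 9.95 to 10.0 in RS, 9.82 to 10.3 in RG and 7.61 to 9.53 in WAT, with the lowest value in WAT 4. Over 10 macrophage markers the mean was 4.72 to 5.07 in BAT, 4.77 to 5.61 in CL, 4.19 to 4.77 in RS, 4.64 to 5.75 in RG and 7.23 to 8.35 in WAT, again with WAT 4 at the end of the range. Stromal and preadipocyte markers (11 genes) averaged 5.32 to 5.89 in BAT, 5.81 to 6.86 in CL, 4.91 to 6.05 in RS, 6.06 to 6.78 in RG and 7.05 to 8.66 in WAT. In WAT the arrays with the lower macrophage means (7.23 in WAT 1 and 7.50 in WAT 3, against 7.58 in WAT 2 and 8.35 in WAT 4) were those with the higher values of 5 Serpina3 genes. This split was not particular to macrophages. WAT 1 and WAT 3 also had higher adipocyte means (9.53 and 9.47, against 8.99 and 7.61). Their stromal means (7.05 and 7.41, against 7.95 and 8.66) and mast cell means (4.42 and 4.62, against 5.53 and 5.71) were lower. Endothelial means did not split so. The macrophage means of all WAT arrays lay above those of all other arrays. The part of these cells in the Serpina3 levels was not tested.

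By limma over all probe sets, all 10 macrophage markers were lower than WAT in each of BAT, CL, RS and RG. The count stayed at 10 when any single array was left out. Of all probe sets, 16.4% were lower and 27.6% higher in BAT, and 9.97% and 15.2% in CL. The shares were 10.3% and 11.1% in RS and 6.24% and 5.19% in RG, and all marker counts below are to be read against them. Stromal markers were lower for 10, 6, 9 and 4 of 11 genes in BAT, CL, RS and RG, and mast cell markers for 6, 5, 6 and 7 of 8, with 1 mast cell marker higher in RS (0 without WAT 4 or RS 4). The stromal count in RS was 4 without RS 3, that in CL was 2 without WAT 4, CL 1 or CL 4, that in RG was 2 without RG 2 or RG 4, and the mast cell count in CL was 2 without WAT 2 or WAT 4 and 3 without CL 4. Hepatocyte markers, listed because liver is the main source of several Serpina3 proteins, averaged 3.67 to 3.75 in BAT, 3.69 to 3.91 in CL, 4.02 to 4.03 in RS, 3.73 to 3.84 in RG and 3.17 to 3.69 in WAT over 12 genes. Of the 12, 5 rose (27.6% of all probe sets) and 1 fell (16.4%) in BAT. In CL 1 rose (15.2%), in RS 3 (11.1%), and in RG 0 passed. The increases in BAT numbered 2 without WAT 3 and 3 without BAT 1, BAT 3 or BAT 4, that in CL was lost without WAT 2, WAT 4, CL 1 or CL 4, and those in RS came to 1 without WAT 1, WAT 2, WAT 4 or RS 4. Albumin, Alb, the one that fell in BAT, read 3.19 to 3.47 in BAT, 5.26 to 6.54 in CL, 5.69 to 7.34 in RS, 6.08 to 6.91 in RG and 3.69 to 5.89 in WAT.

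Mature adipocyte markers rose in 2 of 11 in BAT (27.6% of all probe sets) and 2 in CL (15.2%). They rose in 3 in RS (11.1%) and 6 in RG (5.19%), and 0 fell. These counts ran from 1 to 5, 1 to 4, 1 to 6 and 0 to 7 when single arrays were left out, with the higher counts without WAT 1 or WAT 3 (4 and 5 in BAT, 4 and 4 in CL, 6 and 6 in RS). The count was 1 in BAT without WAT 2, WAT 4 or any BAT array, 1 in CL without CL 4 and 1 in RS without WAT 2. In RG it was 2 without WAT 2, WAT 4 or RG 3, 1 without RG 2 and 0 without RG 4. Endothelial markers fell in 6 of 10 in RS (10.3% of all probe sets) and 2 in RG (6.24%), and in 0 in BAT and CL. The RS count was 0 without RS 3, 1 without WAT 2 and 2 without WAT 3, and the RG count 1 without WAT 1 and 0 without WAT 2, WAT 3, RG 2 or RG 3. Without WAT 4, 1 adipocyte and 1 endothelial marker fell in BAT. Of 9 lymphocyte and natural killer cell markers 1 rose and 1 fell in BAT and 1 rose in CL, and of 8 neutrophil markers 1 rose in each of BAT, CL and RS, with 0 further calls against WAT in either list. Calls this few turned on single arrays: the lymphocyte increase in BAT was lost without BAT 3 and the decrease without WAT 2, WAT 4, BAT 1 or BAT 4, and the neutrophil increase in RS without WAT 2, WAT 4 or RS 4. Without WAT 4 the lymphocyte increases numbered 2 in BAT, 2 in CL and 1 in RS and the neutrophil increases 2 in BAT, without CL 4 the lymphocyte increases in CL numbered 2, without WAT 1 there were 2 lymphocyte and 2 neutrophil decreases in BAT, and without WAT 3 there was 1 neutrophil decrease in BAT.

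**Figure D3:**
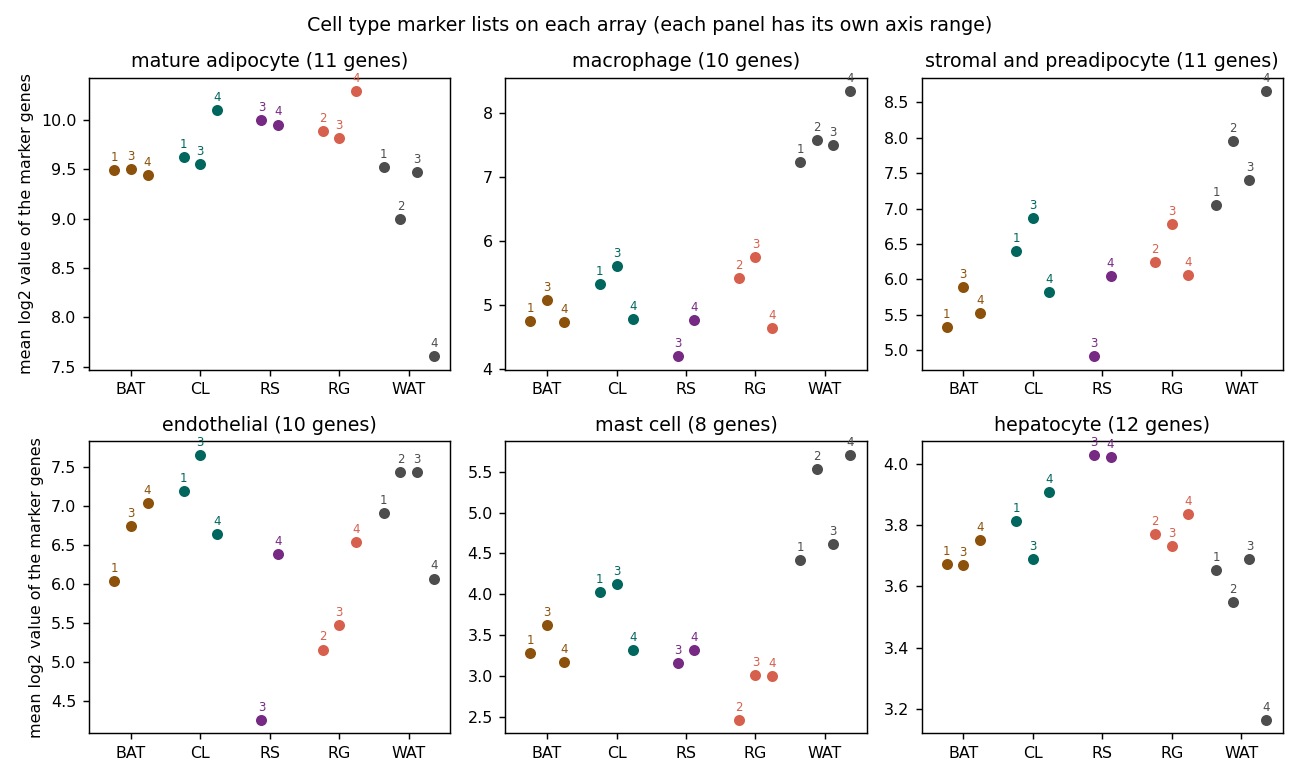
Mean log2 value of 6 cell type marker lists (vertical axis, with its own range in each panel) on the 15 arrays, by group along the horizontal axis, with the replicate number above each point. Macrophage markers lie at 4.19 to 5.75 in BAT, CL, RS and RG and at 7.23 to 8.35 in WAT, and WAT 4 has the lowest adipocyte mean (7.61).

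Genes of the signals known to induce Serpina3 genes were next counted with limma at an adjusted p under 0.05 over all probe sets. The WAT arrays had the highest macrophage and stromal marker means. The part of such cells in the differences from WAT was not tested, for these lists or those that follow. Interleukin-6 family cytokines, receptors and STAT3 pathway genes fell in 14 of 19 in BAT, 11 in CL, 8 in RS and 6 in RG relative to WAT, and 0 rose. Of all probe sets, 16.4% fell and 27.6% rose in BAT, 9.97% fell and 15.2% rose in CL, 10.3% fell and 11.1% rose in RS, and 6.24% fell and 5.19% rose in RG. The list's median difference from WAT was -1.03 in BAT, -0.87 in CL, -0.60 in RS and -0.41 in RG. Il6, the cytokine itself, read 3.67, 4.06 and 3.90 in BAT, 4.52, 4.52 and 4.45 in CL, 4.90 and 5.36 in RS, 5.36, 5.38 and 5.41 in RG, and 6.62, 6.59, 6.73 and 6.67 in WAT. It fell by 2.78 ± 0.145 log2 units in BAT, 2.16 ± 0.145 in CL, 1.52 ± 0.164 in RS and 1.27 ± 0.145 in RG (SE, limma adjusted p = 9.48e-08, 1.91e-06, 1.12e-04 and 1.83e-04).

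Il6ra, the interleukin-6 receptor chain, fell by 2.56 ± 0.285 in BAT, 2.12 ± 0.285 in CL, 1.31 ± 0.323 in RS and 1.14 ± 0.285 in RG (limma adjusted p = 2.71e-05, 3.32e-04, 0.0121 and 0.0197). Cebpd, a transcription factor of the acute phase, fell by 1.88 in BAT, 1.23 in CL and 0.93 in RS. The STAT3 target Bcl3 fell by 1.11 in BAT, 1.45 in CL, 1.08 in RS and 0.97 in RG. Osmr, the oncostatin M receptor, fell by 1.43 in BAT, 0.96 in CL and 0.84 in RS. Osm, its ligand, fell by 0.73 in BAT, 1.05 in CL, 1.09 in RS and 1.22 in RG. The RS count was 5 without WAT 3, 4 without WAT 4 or RS 4 and 2 without RS 3, and the RG count 3 without WAT 4, RG 2 or RG 4.

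Glucocorticoid receptor and response genes fell in 12 of 19 in BAT, 9 in CL, 6 in RS and 3 in RG relative to WAT, and 1 rose in each. The riser was Pdk4, a kinase that holds back pyruvate oxidation, higher by 2.78 ± 0.373 in BAT, 2.14 ± 0.373 in CL, 1.61 ± 0.423 in RS and 1.86 ± 0.373 in RG (limma adjusted p = 1.01e-04, 0.00150, 0.0164 and 0.00684). Errfi1, a feedback inhibitor of the EGF receptor, fell by 2.16 in BAT, 2.20 in CL, 1.84 in RS and 1.75 in RG. Fkbp5, a co-chaperone of the receptor, fell by 1.26 in BAT and 1.46 in CL. Mt2, a metallothionein, fell by 1.49 in CL and by somewhat less in BAT, also past the threshold. Per1, the clock gene, fell by 0.87 in BAT, 0.63 in CL, 0.75 in RS and 0.93 in RG. Sgk1, a kinase, fell by 0.66 in BAT and 0.96 in RS. The decreases in RS numbered 2 without RS 3. The increases in RS numbered 0 without RS 3 and 2 without WAT 1 or RS 4, and those in RG 2 without WAT 1 or WAT 3.

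Interferon-gamma response genes were listed because the cytokine induces Serpina3g. They fell in 17 of 22 in BAT, 11 in CL, 2 in RS and 1 in RG, and rose in 1, 1, 0 and 2. As with the lists before, the shares of all probe sets given above are the measure for these counts. The RG riser with the largest difference was Cd274, the checkpoint ligand PD-L1, by 0.91 ± 0.165 (limma adjusted p = 0.00416), with Cxcl9, a chemokine, at 0.80. Gbp2, a GTPase of the response, fell by 1.45 in BAT and 0.99 in CL, and Irf8, a transcription factor of myeloid cells, by 1.53 and 1.01. Quantile normalization took the counts to 8 in BAT and 4 in CL. Single arrays also moved them, in BAT to 8 without BAT 1 and 9 without BAT 3, and in CL to 7, 6, 5, 6 and 4 without WAT 1, WAT 4, CL 1, CL 3 and CL 4. The increase in BAT was lost without WAT 1, WAT 2, WAT 3 or any one BAT array, and that in CL without CL 1. In RG the 2 increases came to 1 and the 1 decrease to 0 without WAT 2, WAT 4 or any one RG array.

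The drug groups differed less. In CL against RG, 2.87% of all probe sets passed the threshold. Among the listed genes with a fall in CL were Zbtb16, a glucocorticoid-induced transcription factor (by 1.58 ± 0.236, limma adjusted p = 0.00828), Gbp2 (by 1.37 ± 0.221, adjusted p = 0.0111), Cxcl10, a chemokine (by 1.29 ± 0.220, adjusted p = 0.0125), Irf1, the interferon-induced transcription factor (by 0.84), Cebpd (by 0.92) and Il6 (by 0.89). In these counts 5 of 22 interferon-gamma genes, 3 of 19 glucocorticoid genes and 2 of 19 interleukin-6 genes fell and 0 rose, but without RG 2 the counts were 0, 1 and 0, and without RG 3 they were 1, 0 and 0. Without CL 1, CL 3 or CL 4 the interferon-gamma count was 2, 3 and 2 and the interleukin-6 count 1. Cebpd is counted in both the glucocorticoid and the interleukin-6 list. Serpina3c, Serpina3f and Serpina3n were the members lower on all CL arrays in the same comparison. In RS against CL, 1.27% of all probe sets passed and Cxcl10 rose by 1.16 while Gbp4, a GTPase, fell by 1.53. In RS against RG, 0.682% passed and Cd274 fell by 1.07. The increase in RS against CL was lost without CL 1, CL 3 or RS 3, the decrease without any one CL or RS array, and that of Cd274 without RS 4, RG 2 or RG 3.

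Proteases of the kinds that SERPINA3-type inhibitors act on were also counted. Of 17, 5 fell and 3 rose in BAT, 4 and 1 in CL, 5 and 2 in RS, and 5 and 0 in RG. Of all probe sets, 16.4% fell and 27.6% rose in BAT, and 9.97% and 15.2% in CL. The shares were 10.3% and 11.1% in RS and 6.24% and 5.19% in RG. With 17 genes, in a list written with earlier results known, nothing is read from these counts of increases. The 4 largest decreases in every group were the mast cell proteases Mcpt4, a chymase, and Tpsb2, a tryptase, and the lysosomal cathepsins Ctsh and Ctsk. Mcpt4 read 1.68, 1.65 and 1.93 in BAT, 3.45, 3.48 and 1.88 in CL, 1.82 and 2.57 in RS, 0.97, 2.21 and 1.68 in RG, and 4.04, 5.83, 4.51 and 5.64 in WAT. It fell by 3.25 ± 0.452 in BAT, 2.07 ± 0.452 in CL, 2.81 ± 0.513 in RS and 3.39 ± 0.452 in RG (limma adjusted p = 1.23e-04, 0.00544, 0.00264 and 6.14e-04). Tpsb2 and Mcpt4 are among the mast cell markers above, and the part of mast cells in these differences was not tested.

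Ctsg, neutrophil cathepsin G and a textbook target, read 3.29 to 3.68 in BAT, 3.04 to 3.40 in CL, 3.11 to 3.14 in RS, 3.15 to 3.22 in RG and 2.72 to 3.11 in WAT, and rose in BAT by 0.57 (limma adjusted p = 0.00876). Gzmb, granzyme B, lay below the array median on every array and read 1.69 to 2.77 in BAT, 1.90 to 2.31 in CL, 1.97 to 2.01 in RS, 1.89 to 2.68 in RG and 1.79 to 3.25 in WAT. Of the proteases, 2 fell in CL without CL 4 and 3 in RS without RS 3. The 2 risers in RS came to 0 or 1 without WAT 1, WAT 2, WAT 3, WAT 4 or RS 4, and the 3 in BAT to 0 after quantile normalization.

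Of 21 acute phase genes, 4 fell and 4 rose in BAT, 3 and 1 in CL, 2 and 4 in RS, and 2 and 0 in RG. Of all probe sets, 16.4% fell and 27.6% rose in BAT, and 9.97% and 15.2% in CL. The shares were 10.3% and 11.1% in RS and 6.24% and 5.19% in RG. Lbp, the lipopolysaccharide-binding protein, fell by 3.83 ± 0.370 in BAT, 2.59 ± 0.370 in CL, 1.73 ± 0.420 in RS and 1.69 ± 0.370 in RG (limma adjusted p = 1.01e-05, 4.82e-04, 0.0114 and 0.0110). Saa3, the serum amyloid A of fat, fell by 3.10 in BAT, 2.31 in CL, 1.43 in RS and 1.07 in RG, and Lcn2, lipocalin-2, fell by 1.80 in BAT and 1.07 in CL. Orm1, orosomucoid, rose in RS by 1.73 ± 0.536 (limma adjusted p = 0.0332), and Orm3 rose by 1.34 in BAT and 1.40 in RS. The increase in CL was lost without CL 4 and became 2 without WAT 1 or WAT 3. The 4 risers in RS came to 1 without WAT 2, WAT 4 or RS 3, the 2 decreases in RS to 1 without RS 3 or RS 4, and the 2 in RG to 0 without RG 2 or RG 4 and to 1 without WAT 1, WAT 3 or RG 3.

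Of 20 serpins of other clades, 6 fell and 5 rose in BAT, 5 and 1 in CL, 6 and 2 in RS, and 2 and 1 in RG, to be read against the shares of all probe sets given above. Serping1, the C1 inhibitor of complement, fell by 2.78 ± 0.496 in BAT, 1.93 ± 0.496 in CL and 2.67 ± 0.562 in RS (limma adjusted p = 6.48e-04, 0.0123 and 0.00563). Serpinf1, the secreted factor PEDF, fell 6.71-fold in BAT (by 2.75 log2 units), 3.55-fold in RS (by 1.83 log2 units) and 2.56-fold in CL. Serpinb8, an inhibitor inside the cell, fell in all 4 groups, by 2.01 in BAT, 1.73 in CL, 2.11 in RS and 1.57 in RG. Serpinb1a, an inhibitor of neutrophil proteases, fell by 1.04 in BAT, 1.78 in RS and 1.71 in RG. The RS decreases numbered 2 without RS 3, those in CL 3 without CL 4, and those in RG 5 without WAT 1 and 4 without WAT 3. The increase in RG was lost without any one WAT or RG array, and that in CL without WAT 1, WAT 2, WAT 4 or any one CL array. The increases in RS came to 1 without WAT 1, WAT 2, WAT 4 or RS 4 and to 0 without RS 3.

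Among the other 13 clade A serpins 10 rose in BAT, 5 in CL, 4 in RS and 1 in RG, and 0 fell. The share of all probe sets that rose was 27.6% in BAT, 15.2% in CL, 11.1% in RS and 5.19% in RG. Of the 13 serpins, 9 lay below the array median on every array. Serpina1b, an alpha-1-antitrypsin gene of liver, was the exception in size. It read 6.47, 5.49 and 4.05 in BAT, 6.23, 6.27 and 3.07 in CL, 2.08 and 3.40 in RS, 2.35, 0.91 and 3.00 in RG, and 0.90, 1.82, 2.77 and 2.15 in WAT, and rose by 3.43 ± 0.756 in BAT and 3.28 ± 0.756 in CL (limma adjusted p = 0.00258 and 0.00711). Serpina6, which binds cortisol in plasma, rose by 1.39 ± 0.192 in BAT, 0.87 ± 0.192 in CL and 0.83 ± 0.217 in RS. After quantile normalization the counts were 4 in BAT, 1 in CL, 0 in RS and 0 in RG, with Serpina1b still called in BAT and CL (3.32 and 3.05) and Serpina6 in BAT alone (1.08). The CL count was 3 without CL 1, and the RS count 2 without WAT 2 or WAT 4 and 1 without RS 3 or RS 4. The increase in RG was lost without WAT 2, WAT 4, RG 2 or RG 4.

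The 4 further Serpina3 genes with a named probe set, Serpina3a, Serpina3b, Serpina3i and Serpina3j, lay between 1.40 and 3.14 log2 units, below the array median on every array. Serpina3a (by 1.16), Serpina3i (by 0.95) and Serpina3b (by 0.62) rose in BAT and Serpina3a in CL (by 0.54, not called without CL 1, CL 3, WAT 2, WAT 3 or WAT 4). After quantile normalization Serpina3a in BAT was left (0.69, limma adjusted p = 0.0118). These neighbours were dim throughout, and a fall in BAT from values this low could hardly have been seen. They are therefore not set against Serpina3c, Serpina3f, Serpina3m and Serpina3n.

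**Figure D4:**
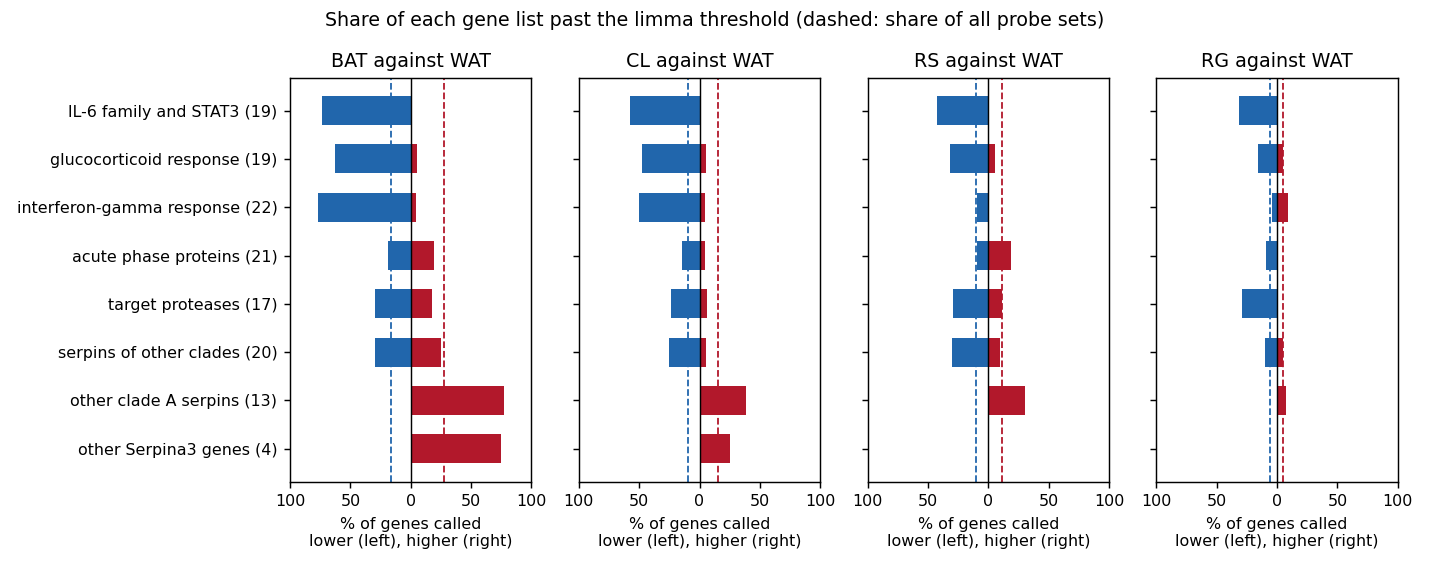
Share of each gene list (number of genes in brackets) past the limma threshold in BAT, CL, RS and RG against WAT, drawn to the left for genes that fell and to the right for genes that rose; dashed lines give the share of all probe sets, such as 16.4% lower and 27.6% higher in BAT. Interleukin-6 and STAT3 genes extend to the left in all 4 panels (14, 11, 8 and 6 of 19), and interferon-gamma genes in BAT and CL (17 and 11 of 22).

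The genes most like each member were found by Pearson correlation of log2 values over the 15 arrays, among 17839 named probe sets, for the 4 members whose group means spanned 1 log2 unit or more. The arrays fall into groups, so the correlations follow the group means. Closest to Serpina3n were Trabd2b (0.97), Slc2a13, a myo-inositol transporter (0.96), Cpne2 (0.94), Stambpl1 (0.93) and Sec24b, a vesicle coat protein (0.92). Trabd2b, a metalloprotease of Wnt proteins, averaged 4.17 ± 0.280 in BAT, 4.84 ± 0.248 in CL, 5.64 ± 0.217 in RG and 5.75 ± 0.484 in WAT (SD, n = 3, 3, 3 and 4) and read 5.92 on both RS arrays. Closest to Serpina3m were Lcn2 (0.92), Tgm1 (0.90), Trabd2b (0.89), Polr3e (0.87) and Lrrc3 (0.87).

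Closest to Serpina3c were Npdc1 (0.93), Gbp5, an interferon-induced GTPase (0.93), Hcar2, the niacin and ketone-body receptor (0.92), Clec2d (0.92) and Apcdd1, an inhibitor of Wnt signalling (0.92). Closest to Serpina3f were Ssh1, a cofilin phosphatase (0.94), Lrmda (0.94), Enc1 (0.93), Pnp, purine nucleoside phosphorylase (0.93) and Oas1g, an interferon-induced gene (0.92). Oas1g averaged 1.96 ± 0.560 in BAT, 2.05 ± 0.370 in CL, 1.85 ± 0.495 in RS, 3.93 ± 1.09 in RG and 5.02 ± 0.320 in WAT (SD, n = 3, 3, 2, 3 and 4). Like Serpina3f it had its high means in RG and WAT.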

How the data were processed

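The authors' deposited table holds a log2 value for each of 25206 probe sets on each of 15 arrays, with 0 missing. Per the labels' protocols, each array started from 2 ng of total RNA, amplified by a WT Pico kit. Per the submitters' processing notes, RMA, affy 1.36.1 and Affymetrix Expression Console were used, with order, settings and probe-set definition not given in the sources used here. RMA fits each array to a shared distribution, and the WAT arrays keep a wider one than the other groups, which can shift dim and bright probe sets in opposite directions.

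Groups were taken from the sample labels. Of the 6 genes, 2 were named by the platform's probe table and 4 by their Entrez number in RefSeq. Other genes were named by the platform table alone (1 symbol for 23185 probe sets, none for 2021), with the brightest probe set used for a gene with several.

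Group means were fitted in limma 3.58.1 (R 4.3.3) with lmFit, contrasts.fit and eBayes, all 15 arrays in 1 fit with 10 residual degrees of freedom, with two-sided p-values adjusted by Benjamini and Hochberg's method across the whole table in each of 7 comparisons and a threshold of 0.05. The script was tested on simulated data. Standard errors and 95% intervals come from this fit. RS has 2 arrays, and the fit assumes that its spread matches the other groups'. The labels do not say whether arrays came from separate animals, so p-values measure only the spread between these samples, which may be technical. Same-numbered arrays were checked for pairing: 24 pairs of deviations from the group means correlated between -0.88 and -0.05, and 0 of 15 arrays correlated best with its own number, so the arrays were treated as unpaired.

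The genes and all lists (8 of pathways, 8 of cell type markers) were chosen with earlier results of these data known. Some lists share genes, such as Cebpd (interleukin-6 and glucocorticoid) and Lcn2 (glucocorticoid and acute phase), so their counts are not separate. Up to 4 genes per pathway list and comparison are named, those past the threshold with the largest difference. For several of these, differences past the threshold in other groups are given too. For each of the 6 genes whose group means spanned 1 log2 unit or more, the 5 genes with the highest correlation are named. Ctsg, Gzmb and Ucp1 were added for their known roles after their values were seen.

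Alternatives were a replicate block, centring on array medians, quantile normalization, array weights, an intensity trend with robust fitting, bright probe sets only, a fit of the compared groups only, and leaving out arrays.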

Additional observations from a re-analysis of the deposited data

How the results depend on the processing

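The differences of the 6 Serpina3 genes moved little: of 210 values under other settings, 207 moved by less than the SD between replicates. Without both WAT 4 and RS 3, Serpina3c differed by -0.78 in RS against WAT and by -0.90 in RS against RG (-0.90 to 0.11 without single arrays), and Serpina3k by 0.32 in RS against CL (-0.093 to 0.32). Counts of called probe sets depended far more on the setting. With the replicate block, which leaves 7 residual degrees of freedom, they were 7286 in BAT, 2461 in CL, 2052 in RS and 1071 in RG against WAT, 13 in RS against CL, 0 in RS against RG and 1 in CL against RG (11096, 6350, 5387, 2882, 321, 172 and 724 without it). Listed pathway genes called with the block numbered 30 in CL, 17 in RS and 13 in RG against WAT and 0 in the 3 comparisons between drugs (52, 41, 24, then 2, 2 and 11 without it); the samples share only a number. Quantile normalization gave 6220 probe sets in BAT, 3152 in CL and 2455 in RS against WAT, 44 in RS against RG and 442 in CL against RG, with 52, 31, 19, 0 and 7 listed genes. Bright probe sets alone, a smaller table, gave 5271, 3274, 2943, 82 and 343. Without both WAT 4 and RS 3 the counts were 2438 in RS against WAT, 121 in RS against CL, 406 in RS against RG and 1189 in CL against RG, and listed genes numbered 10 in RS and 15 in RG against WAT, 0 in RS against CL, 1 in RS against RG and 23 in CL against RG. Array weights gave 2376 in RS and 6509 in RG against WAT, 20, 9 and 2615 in RS against CL, RS against RG and CL against RG. Fitting the compared groups alone gave 3433 in RS against WAT, 4 in RS against CL and 0 in RS against RG. Leaving out single arrays gave 3560 to 5519 probe sets in CL, 2951 to 5008 in RS and 1044 to 2783 in RG against WAT, 41 to 566 in RS against CL, 8 to 308 in RS against RG and 28 to 347 in CL against RG, and 34 to 49, 16 to 38, 13 to 25, 0 to 7, 0 to 1 and 1 to 11 listed genes. The cause of these changes was not tested. Centring on medians kept the counts of probe sets and of listed genes within 1.5 times in all 7 comparisons, and the intensity trend those of probe sets, for which alone it was run. No array carries a background signal, so which dim values are above background is not known here.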
